A study of Mus musculus with 15 samples.

Results

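Described here are the 8 DKO lines of a series of 15 leukemia lines, taken as the columns of the deposited expression table whose names start with DKO. All 8 are T cell leukemia lines grown from the thymus of FVB/NJ mice with the genotype E2a-/- LefF/F LckCre+, that is, mice that lacked *E2a* in all cells and carried floxed *Lef1* alleles together with a Cre transgene under the *Lck* promoter, which is active in early thymocytes. By the study's methods the lines were established by culture of thymic cells from moribund mice, and each is represented by 1 library of untreated cells, so a difference between lines may come from the animal, the culture or the library, and these cannot be told apart. The other 7 lines, E2a-/- only, were not used, and no group was tested against another.

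The table lists 12545 genes in CPM, the reads of a gene scaled to 1 common total for every line. DKO79.9 had 4847970 reads on the listed genes and the other DKO lines had 15654332 to 21377352. A level under 3 reads, which is 0.618 CPM in DKO79.9 and 0.140 to 0.191 CPM in the others, was not told apart from 0. Of the listed genes, 8200 (65.4%) were at 5 CPM or more in all 8 lines and 83.8% in at least 1 line. Spread between lines is given as the standard deviation (SD) of log2(CPM + 1) over the 8 lines, which understates the spread of genes at low CPM.

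T cell precursors in the thymus pass from a double negative (DN) stage, without CD4 and CD8, to a double positive (DP) stage with both. The E proteins encoded by *E2a* and *Tcf12* and the HMG box factors TCF1 (*Tcf7*) and LEF1 act in these steps together with Notch signaling. In T cell leukemia the cells stop at such a stage and divide, and lines from different animals commonly carry different secondary lesions.

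Reads on the targeted genes were present in every line. *Tcf3*, the gene of the E2A proteins, was at 168 ± 33.8 CPM (SD, n = 8), with the lowest value of 117 in DKO170.2, a median of 173 and the highest of 218 in DKO79.9. *Lef1* was at 140 ± 37.1 CPM (SD, n = 8), from 103 in DKOTu3 through a median of 128 to 210 in DKO79.9. These values count reads anywhere in the gene, while the floxed part of *Lef1* covers only the DNA binding domain, so they do not check the deletions.

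Among the 20 genes with the highest mean CPM, 1, *Tcf7*, was in the T-lineage lists. Of the 20, 7 were mitochondrial, led by *mt-Co1*, a subunit of cytochrome oxidase, at 8625 ± 819 CPM (SD, n = 8). *Eef1a1*, the elongation factor that brings tRNA to the ribosome, followed at 8034 ± 769 CPM. *Hsp90ab1*, a chaperone, was at 4971 ± 517 CPM and *Eef2*, the factor of ribosome translocation, at 4698 ± 501 CPM. The remaining nuclear genes other than *Tcf7* were *Ptma*, *Rpl4*, *Tubb5*, *Rpl8*, *Ncl*, *Npm1*, *Rack1*, *Hnrnpa2b1* and *Pabpc1*. Among the 20, *Pabpc1*, which binds the poly(A) tail, had the smallest SD, 0.10 on the log2 scale, and *mt-Nd2*, a subunit of complex I, the largest, 0.40.

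*Tcf7* was the 12th in mean CPM at 2862 ± 461 (SD, n = 8). Its lowest value was 2217 CPM in DKO170.2, its median 2852 and its highest 3624 in DKO241, so the highest line was less than 2-fold above the lowest. CPM favours long transcripts, and levels of different genes are comparable only per length. Divided by the merged exon length of each gene, *Tcf7* was the 20th, at 1090 CPM per kb, and 14 of the 20 genes stayed among the highest 20, led by *mt-Co3* at 6840 CPM per kb.

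Most genes of the T lineage were on in every line. Of 31 genes in 3 lists (the T cell receptor (TCR) complex and its proximal signaling, pan-T surface proteins and T-lineage factors), 25, or 80.6%, were at 5 CPM or more in all lines, beside 65.4% of all listed genes. All 31 reached 5 CPM in at least 1 line.

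**Figure D1:**
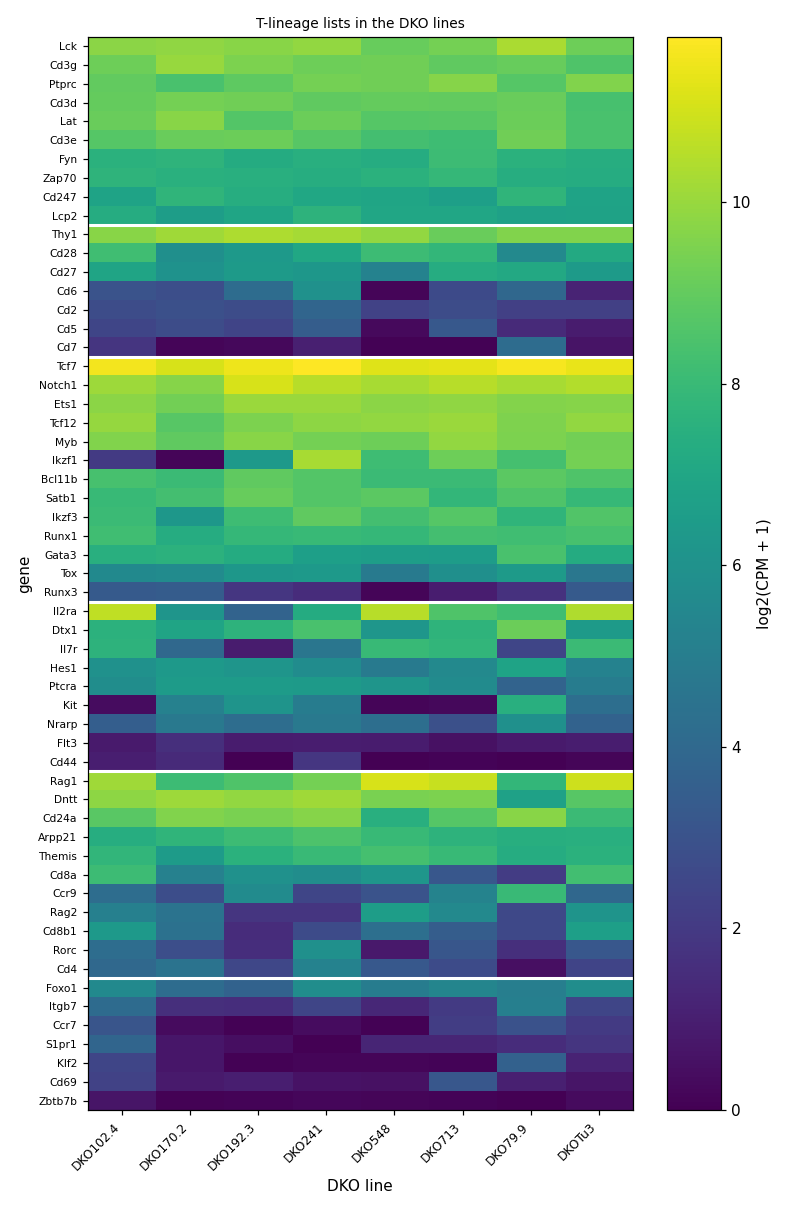
Level of each listed gene, as log2(CPM + 1), in the 8 DKO lines (columns), in 6 lists separated by white lines, with 2 genes not shown, from top to bottom the TCR complex and its signaling, pan-T surface proteins, T-lineage factors, DN thymocyte, DP thymocyte and mature thymocyte genes. The first 3 lists are mostly even across lines apart from *Ikzf1*, *Ikzf3*, *Runx3*, *Cd5*, *Cd6*, *Cd7* and *Cd28*, while *Il2ra*, *Il7r*, *Kit*, *Rag2* and *Cd8a* change from line to line.

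In the list of the TCR complex, 11 of 11 genes were at 5 CPM or more in every line, beside 65.4% of all listed genes. Their SDs were 0.18 to 0.72. *Lck*, the kinase that starts TCR signaling, ranged from 539 CPM in DKO548 through a median of 860 to 1261 CPM in DKO79.9. *Cd3e*, a signaling chain of the complex, ranged from 279.9 CPM in DKO713 through 427 to 618 CPM in DKO79.9. *Zap70*, the kinase recruited to the phosphorylated CD3 chains, was the most even at 160 to 232 CPM.

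Of the 7 pan-T surface genes, 3 were at 5 CPM or more in all lines. *Thy1*, the classic thymocyte marker, was the highest at 562 to 1342 CPM with a median of 903. *Cd28*, the costimulatory receptor, ranged from 46.8 CPM in DKO79.9 to 292 CPM in DKO102.4, and *Cd27* from 37.1 to 160 CPM. The remaining 4 were low. *Cd5*, an inhibitory coreceptor that follows TCR signal strength, was between 0.230 CPM in DKO548 and 10.0 CPM in DKO241. *Cd2* was at 3.68 to 13.5 CPM and *Cd6* at 0.115 to 62.8 CPM, both highest in DKO241 as well. *Cd7* was at 16.9 CPM in DKO79.9, with a median of 0.356 CPM.

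Among 13 T-lineage factors, 11 were at 5 CPM or more throughout. *Notch1*, the receptor that commits progenitors to the T lineage, was at 830 CPM in DKO170.2 and 2200 CPM in DKO192.3, with a median of 1330. *Tcf12*, which encodes the E protein HEB, was at 729 to 1045 CPM in 7 lines and at 426 CPM in DKO170.2. *Bcl11b*, needed for T cell commitment, ranged from 262 to 494 CPM and *Gata3* from 91.9 to 343 CPM. *Runx3*, a factor of the CD8 lineage, was low at 0.115 to 9.70 CPM.

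The other factor under 5 CPM in some lines was *Ikzf1*, which encodes Ikaros, a zinc finger factor of lymphoid development whose loss is known in mouse T cell leukemia. It was at 0.128 CPM in DKO170.2, the amount of 2 reads, at 2.98 CPM in DKO102.4 and at 80.6 CPM in DKO192.3. The other lines were at 280 CPM in DKO548, 325 in DKO79.9, 589 in DKO713, 648 in DKOTu3 and 1257 in DKO241. DKO170.2 and DKO102.4 were thus far under the rest, and the SD of 3.70 was the 4th largest of all genes at a mean of 5 CPM or more. *Ikzf3*, which encodes the related factor Aiolos, was lowest in DKO170.2 at 74.5 CPM and at 210 to 492 CPM in the other lines.

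The genes that mark stages of thymocyte development varied much more than the genes of the TCR complex. Over the members at a mean of 5 CPM or more, the median SD was 0.41 for the TCR complex (11 genes), 0.996 for DN genes (7 genes) and 1.46 for DP genes (11 genes), beside 0.34 over all 9573 genes at that mean.

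In the DN list, 9 of 12 genes were listed, 5 of them at 5 CPM or more in all lines, beside 65.4% of all listed genes. *Il2ra*, the IL-2 receptor alpha chain (CD25) of DN2 and DN3 cells, ranged from 12.4 CPM in DKO192.3 and 70.1 CPM in DKO170.2 to 1484 CPM in DKO548 and 1636 CPM in DKO102.4, with a median of 336. *Ptcra*, the partner of TCR beta in the pre-TCR, was between 12.8 CPM in DKO79.9 and 89.7 CPM in DKO192.3. The Notch targets *Dtx1*, *Hes1* and *Nrarp* were at 72.1 to 579, 28.0 to 117 and 6.28 to 60.6 CPM. DKO79.9 was the highest line for all 3. *Flt3* and *Cd44*, which mark earlier progenitors, stayed at 2.60 CPM or lower.

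*Il7r* and *Kit*, receptors of the growth factors IL-7 and stem cell factor, were each on in some lines only. *Il7r* was at 262 CPM in DKOTu3, 253 in DKO548, 216 in DKO713 and 197 in DKO102.4, then 23.8 in DKO241, 14.7 in DKO170.2, 4.53 in DKO79.9 and 0.841 in DKO192.3. *Kit* was at 173 CPM in DKO79.9, 69.6 in DKO192.3, 35.1 in DKO170.2, 30.6 in DKO241 and 18.5 in DKOTu3, and at 0.293 CPM or lower in DKO102.4, DKO713 and DKO548. The 4 lines with the most *Il7r* were thus the 4 with the least *Kit*. *Rag1*, of the recombinase that assembles receptor genes, was also highest in these 4, at 2228 CPM in DKO548, 1910 in DKOTu3, 1805 in DKO713 and 1140 in DKO102.4, with 228 to 648 CPM in the other lines. The 3 genes were set side by side after their values were seen, and whether they move together was not tested.

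In the DP list all 11 genes were listed and 5 were at 5 CPM or more in all lines, beside 65.4% of all listed genes. These 5 were *Rag1*, *Dntt*, *Cd24a*, *Arpp21* and *Themis*. *Dntt*, the terminal transferase that adds bases at receptor joints, was at 427 to 1110 CPM in 7 lines and 107 CPM in DKO79.9. *Cd8a* ranged from 3.30 CPM in DKO79.9 and 8.26 CPM in DKO713 to 272 CPM in DKO102.4 and 299 CPM in DKOTu3. *Cd8b1*, the other chain of CD8, was highest in the same 2 lines at 80.8 and 102.6 CPM. *Cd4* had a median of 7.005 CPM, with 0.412 CPM in DKO79.9, 14.8 in DKO102.4, 21.8 in DKO170.2 and 36.3 CPM in DKO241. In DKO241 *Cd8a* was at 54.3 CPM.

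Genes of mature thymocytes were mostly low. Of 8 genes, 2 were at 5 CPM or more in all lines, beside 65.4% of all listed genes. Among the 2 was *Foxo1*, a factor of naive T cell homeostasis, at 12.01 to 54.5 CPM. *Ccr7*, *S1pr1* and *Klf2*, of thymic exit and homing, each had a median under 2 CPM, and *Zbtb7b*, the CD4 lineage factor, was at 0.587 CPM or lower. Of the gamma-delta and innate-like genes, 5 were listed. *Etv5* was at 88.4 CPM in DKO713 and 71.3 CPM in DKO102.4, with a median of 17.5, and *Sox13* at 25.1 CPM in DKO170.2, with a median of 3.39. *Blk* reached 26.6 CPM and *Maf* 13.6 CPM in DKO79.9, against medians of 0.0489 and 0.916 CPM, and *Zbtb16* reached 15.5 CPM in DKOTu3. Summed over the 5, the lines ranged from 2.99 CPM in DKO548 to 94.9 CPM in DKO713.

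Marker genes of other cell types were mostly low or not listed. Of those listed, 4 (17.4%) were at 5 CPM or more in all lines, beside 65.4% of all listed genes. These 4 were *Gzma*, *Tbx21*, *Ighm* and *Pecam1*. Of 70 genes in 6 lists (NK and effector, B, myeloid, dendritic, erythroid and stromal genes), the table analysed here holds 23, of which 14, or 60.9%, reached 5 CPM in at least 1 line, beside 83.8% of all listed genes. The other 47, among them *Csf1r* and *Itgax*, were not analysed here. *Gzma*, a granzyme of cytotoxic cells, was on in every line, from 107 CPM in DKO548 through a median of 317 to 1280 CPM in DKO79.9. *Ighm*, the mu heavy chain, was at 22.3 to 154 CPM, whereas *Cd74* stayed at 9.68 CPM or lower and *Cd22* at 5.77 CPM or lower. *Nkg7*, a granule protein of NK and cytotoxic T cells, was at 30.9 CPM in DKO79.9 with a median of 0.134 CPM. *Gata1*, the erythroid factor, was at 41.6 CPM in DKO79.9 and at 4.79 CPM or lower elsewhere. Summed over the 5 listed NK and effector genes the lines ranged from 116 to 1320 CPM, over the 3 myeloid genes from 5.999 to 14.5 CPM and over the 2 dendritic genes from 0 to 7.53 CPM. The share of other cell types in the cultures was not tested.

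Among the stromal genes *Col1a2*, *Pdgfrb* and *Pecam1* were exceptions. *Col1a2*, a collagen chain, was at 195 to 947 CPM in 7 lines and listed at 0 in DKOTu3, where 3 reads would be 0.158 CPM. *Pdgfrb*, a PDGF receptor, was at 60.9 to 411 CPM in 7 lines and at 1.91 CPM in DKO241. *Pecam1* was at 44.9 to 129 CPM, while *Epcam* and *Pdgfra* stayed under 4 CPM.

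Genes of the cell cycle were high and even. All 16 listed genes of proliferation were at 5 CPM or more in every line, beside 65.4% of all listed genes. Their median SD was 0.20, beside 0.34 over all genes at a mean of 5 CPM or more. *Top2a*, of chromosome condensation, was at 618 to 1504 CPM and *Mcm5*, of the replicative helicase, at 537 to 661 CPM. *Mki67* was lowest in DKO170.2 at 424 CPM, with 743 to 1164 CPM in the other lines.

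Among genes altered in T cell leukemia, *Myc* ranged from 306 to 565 CPM, *Notch3* from 256 to 677 CPM and *Fbxw7*, a ubiquitin ligase that marks MYC and Notch proteins for degradation, from 40.8 to 54.7 CPM. *Tal1* stayed at 2.30 CPM or lower and *Lmo1* was listed at 0 in all lines. *Cdkn2a* was between 0 and 7.77 CPM.

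Most genes differed little between lines. Over the 9573 genes with a mean of 5 CPM or more, the median SD was 0.34, the 10th percentile 0.17 and the 99th percentile 2.33, and 958 genes (10%) had an SD of 1 or more. Counting error alone would give a median SD of 0.056, and 9 genes had an SD at or under their own counting SD.

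**Figure D2:**
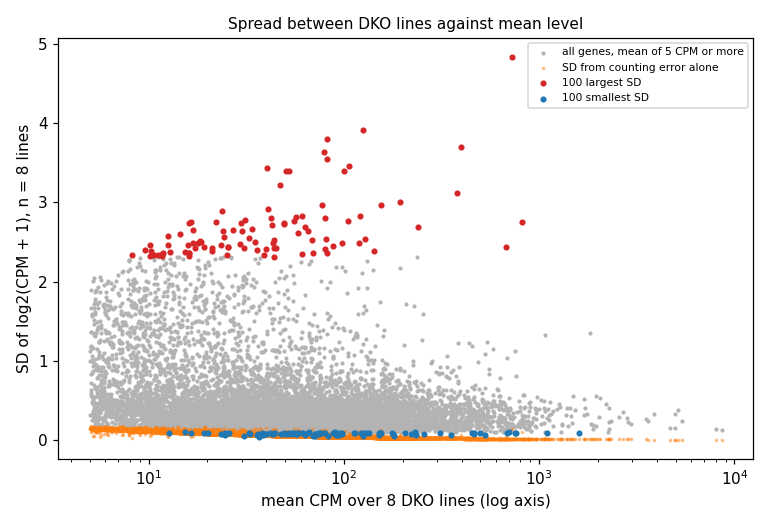
SD of log2(CPM + 1) over the 8 DKO lines (vertical axis) against mean CPM (horizontal log axis) for 9573 genes, with the 100 largest SDs in red, the 100 smallest in blue and, in orange, the SD that counting error alone gives each gene. Nearly all genes lie above the counting SD, and the red genes, at 2.32 or more, occur at low and high means.

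Among the gene families examined, even levels were seen in the spliceosome (median SD 0.22 over 50 genes at a mean of 5 CPM or more), translation initiation and elongation factors (0.24 over 63) and the proteasome (0.28 over 47). Ribosomal proteins had a median SD of 0.40 over 76 genes, and their summed level ran from 39280 CPM in DKO241 to 85563 CPM in DKO170.2, with a median of 46338. Wide spreads were seen in integrins (0.89 over 14) and MHC genes of the H2 complex (0.93 over 18). For the variable segments *Trbv* of the TCR beta locus the median SD was 2.42 over 6 of 10. A segment high in few lines passes the mean of 5 CPM only through those lines, so the filter itself favours a large SD. The 4 segments under that mean had SDs of 0.28 to 0.86. Copies of H2 genes and of ribosomal genes are alike, so reads may be divided between them.

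The 100 genes with the smallest SD lay at or under 0.096, and the next gene outside had the same value to 2 digits. Their highest line was at most 1.25 times their lowest. The first was *Cwf19l1*, a homolog of a yeast splicing protein, at 35.3 to 38.0 CPM with an SD of 0.036, under its counting SD of 0.062. *Cdc5l*, of the spliceosome, was at 119 to 133 CPM with an SD of 0.045. *Psmd2*, of the proteasome cap, was at 336 to 379 CPM, *Paics*, of purine synthesis, at 498 to 556 CPM and *Nxf1*, the mRNA export receptor, at 218 to 249 CPM. *Wdr5*, of histone methyltransferase complexes, was at 144 to 161 CPM and *Nrf1*, a factor of mitochondrial genes, at 87.9 to 101 CPM. *Ints5* and *Ints14* of the Integrator complex and *Parn*, a poly(A) ribonuclease, were also among the first 20, as were *Stard7*, *Fbxw2*, *Fbxo9*, *Tars2*, *D230025D16Rik*, *Atrip*, *Slc35c2*, *1110008L16Rik*, *Tfg* and *Csnk2a2*. Of the 100, 6 were at or under their counting SD, and the median counting SD was 0.045.

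The 100 genes with the largest SD ran from 4.84 down to 2.32, the value of the member at the edge, *Itga4*, as well as of the next gene outside. Their median mean was 39.6 CPM, beside 49.6 CPM over all genes at a mean of 5 CPM or more.

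**Figure D3:**
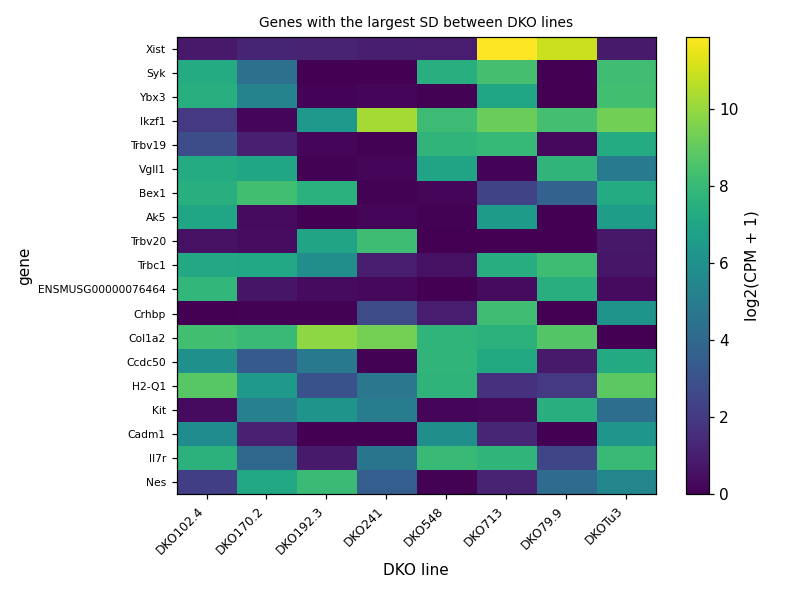
Level as log2(CPM + 1) of 19 of the 20 genes with the largest SD (rows, largest at the top) in the 8 DKO lines (columns). Rows differ in which lines are dark, and *Xist* is bright in DKO713 and DKO79.9 only.

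The largest SD was that of *Xist*, the RNA that silences 1 X chromosome in female cells. It was at 3790 CPM in DKO713 and 1990 CPM in DKO79.9 and at 0.733 to 1.34 CPM in the other 6 lines. The 4 listed genes of the Y chromosome in the sex-linked list showed the reverse. *Ddx3y* was at 0.0483 CPM in DKO713 and 0.206 CPM in DKO79.9, 1 read in each, and at 39.2 to 112 CPM in the others. *Eif2s3y*, *Kdm5d* and *Uty* were at 0.824 CPM or lower in the same 2 lines. The labels do not give the sex of the animals.

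*Syk*, a kinase of B cell and pre-TCR signaling, was listed at 0 in 3 lines and ranged from 20.2 to 336 CPM in 5. *Ybx3*, a cold shock domain protein, was at 310 CPM in DKOTu3, 178 in DKO102.4, 131 in DKO713 and 38.4 in DKO170.2, and at 0.106 CPM or lower in the other 4. *Vgll1*, a TEAD cofactor, was at 217 CPM in DKO79.9, 159 in DKO102.4, 125 in DKO170.2, 121 in DKO548 and 29.8 in DKOTu3, and at 0.106 CPM or lower in DKO192.3, DKO241 and DKO713. *Ak5*, an adenylate kinase, was on in 3 lines, with 131 CPM in DKO102.4, 98.1 in DKOTu3 and 94.4 in DKO713 against 0.255 CPM or lower in the other 5. *Cadm1*, a cell adhesion molecule, was also on in 3 lines, at 74.4 CPM in DKOTu3, 59.0 in DKO548 and 54.3 in DKO102.4, and at 1.40 CPM or lower in the others. *Crhbp*, *Ccdc50*, *Bex1* and *Nes* were also among the first 20, each with at least 1 line at 0.0575 CPM or lower and a highest line of 215 to 307 CPM.

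Genes of the TCR beta locus, in which each T cell joins its own segments, made up 4 of the first 20. *Trbv19* was at 245 CPM in DKO713, 219 in DKO548 and 160 in DKOTu3, and at 6.11 CPM or lower in the others. *Trbv20* was at 293 CPM in DKO241 and 122 CPM in DKO192.3, and at 0.683 CPM or lower in the others. The gene listed as ENSMUSG00000076464 was at 231 CPM in DKO102.4 and 172 CPM in DKO79.9. *Trbv3* was highest in DKO170.2 at 177 CPM. These segments were picked for their SD or, for *Trbv3*, after its values were seen, so no count of lines is drawn from them. Other segments were on as well, such as *Trbv31* at 36.0 CPM in DKO192.3 and *Trbv13-2* at 28.9 CPM in DKOTu3. *Trbc1*, the first constant region, was at 0.850 CPM or lower in DKO241, DKO548 and DKOTu3 and at 58.5 to 296 CPM in the others, while *Trbc2* was at 109 CPM or more in all 8. The 2 constant regions are alike in sequence, so reads may be divided between them.

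In most of the 100 genes the spread did not rest on 1 line. Leaving out the line that lowered the SD most brought it under 0.5 times its value for 12 genes. The line was DKO79.9 for 5 of these (*Aldh1b1*, *Itgae*, *Mcc*, *Homer2* and *Pdgfa*), DKOTu3 for 4 (*Col1a2*, *Dsg2*, *Plod2* and *Gm11223*), and DKO192.3 (*Hdgfl3*), DKO241 (*Gm525*) and DKO548 (*Afdn*) for 1 each.

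A gene was called switched where at least 2 lines were at 5 CPM or more and at least 2 were under 3 reads. This held for 220 of the 12545 genes (1.75%), and 41 of the 100 genes with the largest SD were among them. Of the switched genes, 103 were on in 2 lines, 54 in 3, 38 in 4, 17 in 5 and 8 in 6. The sets of lines that shared a gene were many, 86 in all. The commonest were DKO713 with DKOTu3 (17 genes), DKO548 with DKOTu3 (11), DKO192.3 with DKOTu3 (10) and DKO102.4 with DKO713 and DKOTu3 (10). DKOTu3 was on for 155 of the 220 and off for 17, whereas DKO241 was on for 47 and off for 117.

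Switched genes with a high level in 1 of their lines included *Syk*, *Ybx3*, *Bex1*, *Crhbp*, *Vgll1*, *Ak5*, *Trbv19* and *Trbv20*, given above. *Plod2*, a collagen lysyl hydroxylase, was at 136.6 CPM in DKOTu3 and 5.36 CPM in DKO170.2, and at 1.64 CPM or lower in the others. *Lxn*, a carboxypeptidase inhibitor, was at 126 CPM in DKO79.9, at 8.65 to 20.5 CPM in 5 lines and at 0 in DKO170.2 and DKO713. *Agtr1a*, an angiotensin receptor, was at 104 CPM in DKO713, 32.6 in DKOTu3, 23.3 in DKO102.4 and 16.7 in DKO79.9, and at 0.372 CPM or lower in the others. *Hook1*, which links cargo to microtubules, was at 86.3 CPM in DKOTu3 and 13.7 CPM in DKO102.4 and at 0.290 CPM or lower in the others. *Scrn1*, *Pkdcc* and *Wwc1* had their highest values at 159, 126 and 77.0 CPM. *Tmsb4x*, at 0 to 124 CPM, has many near-identical copies, so its reads are uncertain. The lists and families gave few switched genes, with 4 of 10 *Trbv* segments and 3 of 5 sex-linked genes, beside 1.75% of all genes. *Zfp* zinc fingers gave 6 of 321, and each other list or family gave 2 at most. The 31 T-lineage genes held 0, which in so short a list cannot be told apart from the share of all genes. By chromosome the highest shares were 3 of 5 genes on the Y chromosome and 26 of 605 (4.30%) on chromosome 6. Chromosome 6 holds the TCR beta locus, but its switched genes also include *Ybx3* and *Scrn1*, which lie outside that locus.

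*Evc* and *Evc2*, partners at the base of the primary cilium in Hedgehog signaling, were on in the same lines. *Evc* was at 95.5 CPM in DKOTu3 and 35.7 CPM in DKO192.3, and *Evc2* at 75.2 and 25.8 CPM in the same lines. In the other 6 lines each was at 0.0531 CPM or lower. They are neighbours on chromosome 5 and are read away from each other, with starts 1597 bases apart in RefSeq. The 250 bases before each start are shown because the 2 genes were on in the same lines. They are given on the strand of the gene, from RefSeq (build GRCm38.p6), for *Evc* at chr5:37336882-37337131 (minus strand) and for *Evc2* at chr5:37338228-37338477 (plus strand). Capitals mark the longest run of letters that both windows hold, 13 bases, read on opposite strands.
Evc: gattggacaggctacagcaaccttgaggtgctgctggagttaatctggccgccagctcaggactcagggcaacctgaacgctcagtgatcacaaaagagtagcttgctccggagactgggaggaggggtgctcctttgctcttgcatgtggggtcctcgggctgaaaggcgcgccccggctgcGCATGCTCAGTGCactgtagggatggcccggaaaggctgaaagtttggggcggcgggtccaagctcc
Evc2: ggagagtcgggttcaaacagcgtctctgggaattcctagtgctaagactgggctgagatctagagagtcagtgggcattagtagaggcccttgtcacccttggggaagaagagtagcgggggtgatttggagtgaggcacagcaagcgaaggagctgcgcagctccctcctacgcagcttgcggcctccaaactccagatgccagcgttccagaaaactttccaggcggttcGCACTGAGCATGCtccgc
The run starts 67 bases before the start of *Evc* and 18 bases before that of *Evc2*. On either strand it is found in 9 of 27025 RefSeq promoter windows of 300 bases (0.0333%), those of *Evc* and *Evc2* included. The run was picked because these 2 windows share it, and other runs of 13 bases were not counted. The share therefore does not measure how unusual the match is. It is a match of letters, and whether a factor binds there was not tested. The pair was chosen after its values were seen.

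Other neighbours were low together in 1 line. Neighbours were read among genes whose median in the other lines was 5 CPM or more, so genes under it are skipped. In DKO79.9 the genes *Shb*, *Gm12409*, *Aldh1b1*, *Igfbpl1* and *Stra6l*, 5 in a row in that set, were listed over 464 kb of chromosome 4. Each was at least 4-fold under the median of the other lines, by CPM + 1. *Aldh1b1*, a mitochondrial aldehyde dehydrogenase, was at 3.30 CPM there (16 reads, exact Poisson interval 1.88 to 5.35 CPM at 95%, counting error only) and at 673 to 1192 CPM in the other 7 lines. *Shb*, an adapter protein, was at 0.824 CPM against 14.4 to 55.1 CPM. *Igfbpl1* and *Stra6l* were listed at 0 in DKO79.9. *Igfbpl1* was at 3.04 to 231 CPM in the others, the highest being DKO241, and *Stra6l* at 6.42 to 149.98 CPM.

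DNA copy number was not measured in these data. The same rule was applied to the 9239 to 9302 genes per line whose median in the other lines was 5 CPM or more. Low genes numbered 284 in DKO548, 203 in DKO170.2, 195 in DKO713 and 193 in DKO79.9. They numbered 171 in DKO241, 124 in DKO192.3, 81 in DKO102.4 and 28 in DKOTu3. Runs of 2 or more of them numbered 25 in DKO548, 15 in DKO79.9, 13 in DKO241 and 11 in DKO170.2. There were 10 in DKO713, 6 in DKO192.3, 2 in DKO102.4 and 0 in DKOTu3. The runs of DKO713 and DKO79.9 include the Y chromosome genes, and a run low in several lines is counted in each. Lines with more low genes mostly had more runs, and whether runs exceed what gene order alone gives was not tested.

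**Figure D4:**
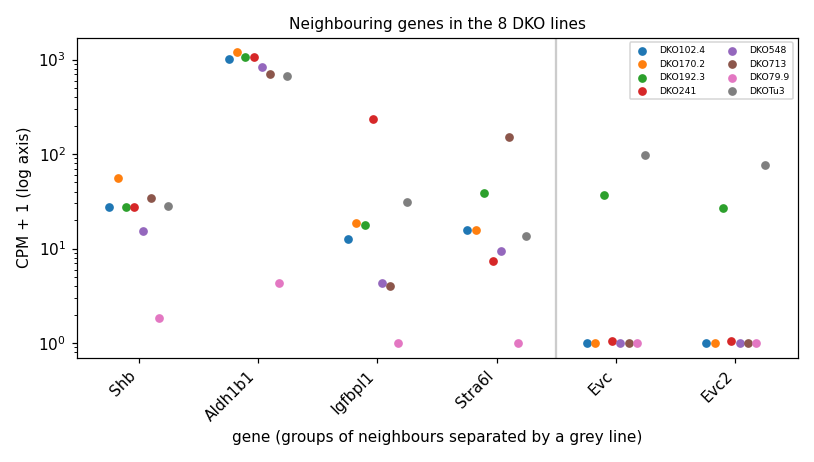
CPM + 1 (log axis) of 6 genes in the 8 DKO lines (colours), with a grey line between the groups of neighbours. DKO79.9 lies low for *Shb*, *Aldh1b1*, *Igfbpl1* and *Stra6l*, and DKOTu3 and DKO192.3 alone lie above the floor for *Evc* and *Evc2*.

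Each line had genes in which it stood apart from all others. Of the 9573 genes, 257 (2.68%) were at least 4-fold above or below every other line in 1 line, by CPM + 1. Most were in DKO548, with 8 above and 63 below, and in DKO79.9, with 30 above and 30 below. DKO713 had 7 above and 26 below, DKO170.2 4 and 25, DKO241 4 and 24, DKOTu3 17 and 6, and DKO192.3 2 and 9. DKO102.4 had the fewest, 1 above and 2 below. With the reads of every line thinned to the 4847970 of DKO79.9, DKO548 had 8 above and 62 below and DKO79.9 31 and 27.

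**Figure D5:**
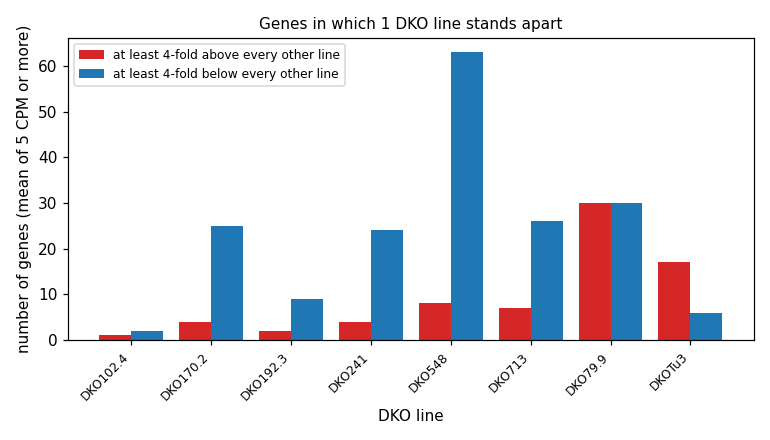
Number of genes (bars, from 0) in which each DKO line lies at least 4-fold above (red) or below (blue) every other DKO line, among 9573 genes at a mean of 5 CPM or more. The tallest bar is the 63 genes in which DKO548 is below, and DKO79.9 has 30 in each direction.

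Some of the genes far higher in a single line than in the next one reached high levels. *Dsg2*, a desmosomal cadherin, was at 248 CPM in DKOTu3 and at 0.242 CPM or lower elsewhere. *Gm525* was at 147 CPM in DKO241, with 0.191 CPM as the highest of the others. *Itgae*, the integrin chain CD103 of intraepithelial T cells, was at 180 CPM in DKO79.9 against 0.0526 to 4.55 CPM. *Homer2*, a scaffold protein, was at 125 CPM in DKO79.9 and at 1.47 CPM or lower in the others. *Ccn4*, a matricellular protein induced by Wnt signaling, was at 144 CPM in DKO548 against 0.374 to 4.11 CPM. *Thbs2*, a thrombospondin, was at 101 CPM in DKO713 and at 1.47 CPM or lower in the others. In DKO713 *Hoxd8* was at 49.5 CPM, with 2.66 CPM as the highest of the others. *Syce1*, of the synaptonemal complex of meiosis, was at 106 CPM in DKO192.3 against 0.0531 to 5.70 CPM. *Basp1* in DKO170.2, at 240 CPM, and *Tnnt1* in DKO102.4, at 83.5 CPM, were the other examples, with the next lines at 36.0 and 12.8 CPM.

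Genes far lower in a single line than in the next one were most numerous in DKO548. *Mfsd14b*, a transporter, was at 0 there and at 37.1 to 68.6 CPM in the others. *Afdn*, a junction adapter, was at 0.690 CPM in DKO548 against 59.8 to 367 CPM, and *Tspan9*, a tetraspanin, at 0.115 CPM against 30.3 to 396 CPM. *Scd1*, the desaturase that makes monounsaturated fatty acids, was at 2.42 CPM in DKO713 and at 91.1 to 747 CPM elsewhere. *Lpin2*, of lipid synthesis, was at 0.145 CPM in the same line against 26.9 to 57.4 CPM. *Maged1* was at 2.18 CPM in DKO241 against 81.4 to 158 CPM. *Pdgfa*, a PDGF ligand, was listed at 0 in DKO79.9 and at 50.1 to 214 CPM in the others. *Gtpbp10*, of mitochondrial ribosome assembly, was at 0 in DKO170.2 and *Kcna3*, the main potassium channel of T cells, at 0.766 CPM, against 13.4 to 40.1 and 17.4 to 62.4 CPM in the others. *Hdgfl3* was at 0.234 CPM in DKO192.3 against 32.4 to 250.3 CPM, and *Tfpi*, an inhibitor of coagulation, at 0.342 CPM in DKO102.4 against 15.7 to 66.0 CPM.

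Across all listed genes the pairs of lines differed in how alike they were. Spearman's rho was highest for DKO102.4 with DKOTu3 (0.962), DKO192.3 with DKO241 (0.960) and DKO713 with DKOTu3 (0.957), and lowest for DKO548 with DKO79.9 (0.893), DKO170.2 with DKO713 (0.897) and DKO170.2 with DKO548 (0.901). These values are across genes, which are not independent, and move with the depth of a line, so no p is given.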

How the data were processed

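RNA was extracted and sequenced by the authors from 1 library per line. Per the labels and methods, reads were trimmed with Trimmomatic (version 0.33), aligned with TopHat2 (version 2.1.0), counted per gene with HTSeq (version 0.6.1) and scaled with edgeR. CPM values were deposited, normalized by the authors to the reads assigned to genes. A listed width is deposited too, but exceeds the span of 1362 genes, so merged exon lengths (GENCODE vM21) were preferred, a choice made after seeing the data. The methods name mm10, while the table's coordinates are those of another assembly, so they are used only for the order of genes. Symbols were matched for 12172 of 12545 genes.

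Dividing by the lowest value above 0 of a line gave whole reads for 100% of the values (within 0.01 reads), so reads could be counted per gene. SDs, switched genes and lines standing apart were computed from CPM in Python (version 3.11.15, pandas version 2.3.3, numpy version 2.4.6) with a pseudocount of 1. The counting SD is the delta-method SD for Poisson counts. Intervals and floors allow for counting error alone, because PCR copies were not told apart by molecular identifiers. TMM and upper-quartile factors and dispersions came from edgeR (version 4.0.16, R version 4.3.3). Scripts were tested on simulated data.

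Named genes are *Lef1* and *Tcf3*, the 20 highest in mean CPM, list members, the 20 largest and 20 smallest SDs, the 20 switched genes with the highest CPM in a line, and per line the 3 genes farthest from the nearest other line in each direction. *Trbv3*, *Trbc2* and the genes near *Aldh1b1* were named after their values were seen, as were the genes whose SD rests on 1 line. Lines and lists were chosen with earlier results of these data known. Family patterns were trimmed of kinases, pseudogenes and H2 genes once their matches were seen. No groups or genes were tested against each other, since 1 group is described, and single lines were set against the others only by Dixon's criterion in the closing section. Promoter composition was void, because RefSeq windows matched 71 of 100 largest-SD genes (71%) and 151 of 220 switched genes (68.6%), under the 80% required. Runs of neighbours, thinning to equal depth and the effect of single lines were added after seeing the data. Results for some of the genes named by these rules are not reported here.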

Additional observations from a re-analysis of the deposited data

Results flagged for a closer look

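In the 8 lines the gap of the extreme line to the nearest other, divided by the range, was set against Dixon's 95% critical value for groups of 8, for line summaries, list means, the targeted genes, the 20 highest means and list members at a mean of 5 CPM or more. Genes chosen for their spread were left out unless a list held them. Of 130 comparisons 18 passed, where chance flags about 1 in 20 groups, or 6.5. That rate holds for normally distributed values, which counts and values at the floor are not. List means also share genes with the list members, so 18 beside 6.5 is no test of an excess. No explanation was tested.

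DKO79.9 stood apart in depth, with 4847970 reads against 15654332 to 21377352 in the others. It had the highest mean log2(CPM + 1) over the listed NK and effector genes, 3.73 against 2.15 to 2.84. Of the 5 genes *Gzma*, at 1280 CPM, and *Nkg7*, at 30.9 CPM, were highest there, while *Prf1* and *Klrb1c* were listed at 0 and *Tbx21*, at 9.07 CPM, was under its median of 9.42. The line also had the highest *Gata1*, 5.41 on the log2(CPM + 1) scale against 0.081 to 2.53. On the same scale it was the lowest for *Hsp90ab1* (11.95 against 12.22 to 12.45), *Hnrnpa2b1* (10.82 against 11.09 to 11.28) and *Dntt* (6.75 against 8.74 to 10.12).

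DKO170.2 was lowest on that scale for *Tcf12* at 8.74 (others 9.51 to 10.03), *Ikzf3* at 6.24 (others 7.72 to 8.95) and *Mki67* at 8.73 (others 9.54 to 10.19), and highest for *Rpl4* at 11.96 (others 11.31 to 11.60). DKO548 was at least 4-fold below every other line in 63 genes, where the others had 2 to 30, and was highest for *Mcm3* at 9.79 (others 9.19 to 9.45). DKOTu3 was on for 155 of the switched genes, where the others were on for 47 to 88, and was lowest for *Cd3d* at 8.37 (others 8.93 to 9.36) and for *Col1a2* at 0 (others 7.62 to 9.89).

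DKO241 was highest for *Cd2* at 3.86 (others 2.23 to 2.91) and lowest for *Pdgfrb* at 1.54 (others 5.95 to 8.69). DKO713 had the lowest mean over the 5 listed B lineage genes, 1.55 against 2.02 to 2.44. Of the 5 genes only *Blnk*, at 0.483 CPM, was lowest there. *Ighm* and *Igll1* were lowest in DKO79.9, *Cd74* in DKO241 and *Cd22* in DKO548. *Ighm* was at 36.4 CPM in DKO713 and 22.3 CPM in DKO79.9. The other genes of this list had means under 5 CPM over the lines, so the low list mean rests largely on low values.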

How the results depend on the processing

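No paired analysis was possible because no groups were compared and the 8 lines share no replicate numbers. Settings were changed 1 at a time, and shared genes are counted among the 20 or 100 of the report. The 220 switched genes became 441 with on set at 2 CPM, 135 at 10 CPM, 138 with off only at 0, 388 with off under 0.618 CPM in every line, 784 with at least 1 line on and 1 off, 53 with at least 3 of each, 365 with reads thinned to the shallowest line (added after seeing the data), and 154 to 200 with each line left out. Of the 100 largest SDs, 61 were shared at a pseudocount of 0.1, 36 by median absolute deviation, 44 by edgeR's tagwise dispersion and 73 to 90 with a line left out. Of the 100 smallest, 58 were shared with upper-quartile scaling, 23 by median absolute deviation, 41 by tagwise dispersion, 60 after thinning and 47 to 80 with a line left out. Of the 20 highest means, 11 were shared per kb of the listed width and 19 to 20 with a line left out. Other-lineage genes on in any line were 7 instead of 14 at 20 CPM. Genes in which a line stands apart were 918 at 2-fold and 94 at 8-fold. The median Spearman's rho of 0.937 was 0.911 over genes at a mean of 5 CPM or more, a setting added later. The other 27 settings, TMM scaling among them, stayed within 1.5 times of the count or within 1 SD of the rho. For shared genes that rule is loose. Of the 100 smallest SDs, 69 were shared with TMM scaling and 72 at a mean of 50 CPM or more. With TMM scaling, 98 of the 100 largest SDs and all 20 highest means were shared. Depth limits the off calls of DKO79.9, where 3 reads are 0.618 CPM.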
